A study of Homo sapiens with 4 samples.

Results

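Among the 10 cancer stem cell markers SOX2, NANOG, POU5F1, PROM1, CD44, KIT, KLF4, MYC, LIN28B and BMI1, the RNA of ALDH+ ovarian cancer stem cells (OCSCs) was dominated by LIN28B and MYC, and none of the 8 that passed the expression filter met the call rule for a change with the estrogen receptor β (ERβ) agonist LY500307. The genes were taken by symbol, and all 10 had a row among the 23228 gene symbols counted in each of the 4 samples. RNA-sequencing had been performed on OCSCs labelled as SKOV3, an established human ovarian cancer cell line, after vehicle in 2 samples and after 5 µM LY500307 in 2 samples, for 24 h each. In both groups the cells had been sorted for aldehyde dehydrogenase activity with the ALDEFLUOR assay and grown as spheroids in medium with EGF, bFGF, hydrocortisone and insulin. ALDH− cells were not analysed here, so a level below describes the ALDH+ cells and does not say whether the sort enriched for that gene. Reads counted on genes numbered 28841701 to 34943882 per sample. The median gene differed by 0.106 on the log2 scale between the vehicle replicates and by 0.216 between the LY500307 replicates.

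The markers belong to different layers of the stem cell programme. SOX2, POU5F1 (Oct4) and NANOG form the transcription factor core of pluripotent cells, and KLF4 and MYC are the factors that are added to SOX2 and POU5F1 to reprogram somatic cells. LIN28B is an RNA-binding protein that blocks the maturation of let-7 microRNAs, BMI1 is a subunit of the gene-silencing Polycomb repressive complex 1 (PRC1), and PROM1 (CD133), CD44 and KIT (CD117) are surface proteins by which tumor-initiating cells of the ovary and other tissues are often sorted. The study asked whether an ERβ agonist lowers such stemness genes. It reported lower SOX2, CD133, Oct4 and Nanog with LY500307, by RT-qPCR after a longer treatment than the 24 h sequenced here, and by Western blot. Those assays were not re-analysed, so the values below speak only for RNA-sequencing at 24 h.

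LIN28 proteins and let-7 repress each other, and the sequences on both sides of this loop are shown because LIN28B carried most of the marker reads. Each of the 12 let-7 and miR-98 5p entries of RefSeq (GRCh38.p14) had the same seed, bases 2 to 8 from the 5′ end, which is capitalised here in 4 of them.
hsa-let-7a-5p: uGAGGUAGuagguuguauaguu
hsa-let-7g-5p: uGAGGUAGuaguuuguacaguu
hsa-let-7i-5p: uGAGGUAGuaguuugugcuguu
hsa-miR-98-5p: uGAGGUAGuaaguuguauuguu
LIN28 proteins are known to bind GGAG in the loop of let-7 precursors, and 9 of the 12 hairpins held these letters on the RNA strand, against 43.4% of the 1562 human hairpins in the same table. The hairpin of MIRLET7G (chr3:52268278-52268361, minus strand, GRCh38.p14) is shown with its GGAG in capitals.
MIRLET7G hairpin: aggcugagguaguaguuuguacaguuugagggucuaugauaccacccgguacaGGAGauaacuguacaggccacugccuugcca
The letters opposite the seed, CTACCTC, occurred 4 times on the coding strand of the LIN28B 3′ UTR, which is 4549 bases long in the canonical GENCODE transcript. They occurred 0 times in the 3′ UTRs of the other 9 markers, but most 3′ UTRs lack them. At least 1 match was held by 9.78% of the 19382 genes with a 3′ UTR. Among genes within 20% of each of the 9 in 3′ UTR length, the share was 2.25% (POU5F1) to 21.1% (NANOG). Of 1543 genes whose 3′ UTR is within 20% of the length of that of LIN28B, 23% held at least 1 match and 3.11% held 2 or more. The matches are capitalised, with their positions on the plus strand of GRCh37.
LIN28B chr6:105526687-105526712: acccggttgcaaagtCTACCTCatgc
LIN28B chr6:105529114-105529139: tactgatgatagtaaCTACCTCtgag
LIN28B chr6:105529296-105529321: gtttacagcaaaaggCTACCTCatag
LIN28B chr6:105530735-105530760: aaatgatggtgttgaCTACCTCttga
A match describes letters and not a bound site. The libraries did not measure mature microRNAs, and the 13 let-7 and miR-98 gene rows, of which 1 is a host gene, held 0 to 28 reads per sample.

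The labelled cell type was checked against its markers. SKOV3 is known as a line with amplified ERBB2 (HER2), a deleted CDKN2A locus and high CD44. Here CDKN2A had 834 to 1107 reads per sample. ERBB2 had a mean of 5.22 RPKM (CPM, the counts-per-million value, divided by the kilobases of exon), higher than 58.0% of genes with reads, and CD44 was near 0. Of 15 epithelial and ovarian markers, ERBB2 among them, 8 passed the expression filter, and the 15 summed to 86.1 to 99.1 CPM per sample. The highest count of the 15 was that of ERBB2, 2060 reads in LY500307 replicate 1, and MUC1 also passed the filter. Some low members were named after their values were seen and do not stand for the whole list. Of these, PAX8 was listed at 0 reads in all samples. The keratin genes KRT7 and KRT19 had at most 2 reads, and KRT8 had 9 to 33. EPCAM had 6213 to 8327 reads and the mesenchymal filament gene VIM 31588 to 45140. The values of CDKN2A, ERBB2 and CD44 go against the known markers of SKOV3. The identity of the cells was not tested, and they are therefore called the ALDH+ cells below. Of 5 aldehyde dehydrogenase genes of the ALDEFLUOR assay, 4 passed the expression filter, and the 5 ranged from 2 to 2292 reads per sample. ALDH1A1 had 134 to 185 reads and ALDH1A2 315 to 347, so neither was the most abundant of the 5. ESR2, which encodes ERβ, had 7 to 12 reads per sample, and ESR1 was listed at 0.

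To examine which markers the ALDH+ cells expressed, reads were divided by exonic length. LIN28B had a mean of 84.2 ± 12.5 RPKM (SD over the 4 samples), above 98.1% of the 17206 genes with reads and a known length, whose median was 3.32. MYC followed with 24.6 ± 1.43 RPKM, above 88.6%. SOX2 had 1.70 ± 0.260 RPKM and BMI1 0.676 ± 0.192, both below the median gene. KIT (0.220 RPKM), KLF4 (0.203) and PROM1 (0.135) lay above 21.8 to 25.1% of genes. CD44 (0.0330), NANOG (0.0151) and POU5F1 (0.00251) lay lowest, above 13.1%, 8.88% and 1.70% of genes. LIN28B exceeded MYC 3.42-fold, MYC exceeded SOX2 14.5-fold, SOX2 exceeded BMI1 2.52-fold, BMI1 exceeded KIT 3.08-fold and PROM1 exceeded CD44 4.10-fold, and in each of these steps the ranges over the 4 samples were apart. With the longest transcript as the length, the order of the 10 was the same, but MYC was at 40.5 RPKM and KIT at 0.454, and LIN28B over MYC, MYC over SOX2 and BMI1 over KIT became 2.27-fold, 23.8-fold and 1.85-fold. By exonic length KIT and KLF4, KLF4 and PROM1, CD44 and NANOG, and NANOG and POU5F1 overlapped in their ranges. LIN28B alone took 75.3% of all reads on the 10 markers, and LIN28B and MYC together 98.2%.

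**Figure D1:**
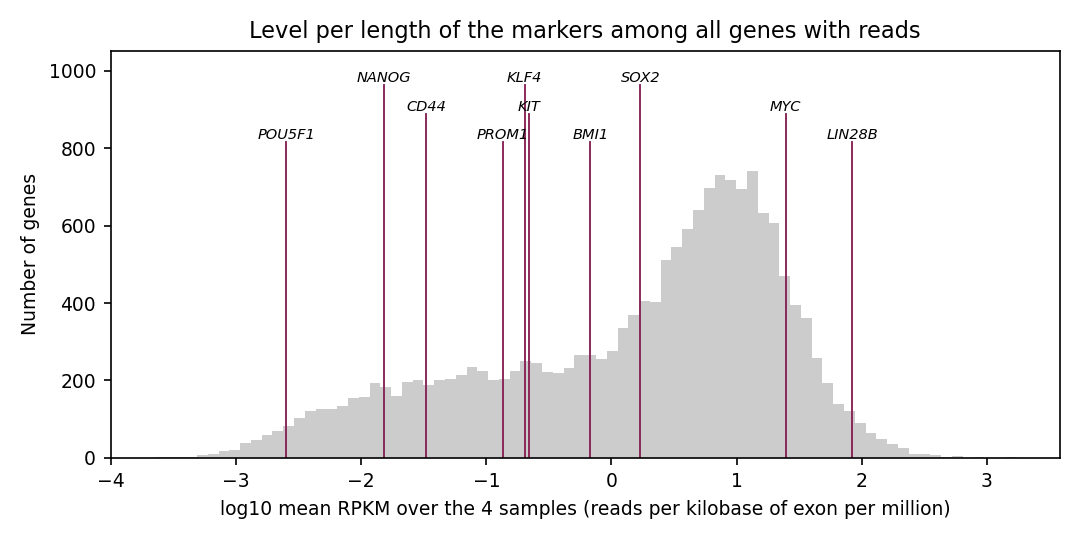
Histogram of the mean level of genes over the 4 samples, as log10 RPKM on the horizontal axis and number of genes on the vertical axis, with a line for each of the 10 markers. LIN28B (84.2 RPKM) and MYC (24.6 RPKM) lie right of the bulk of genes, and the other 8 lie at 1.70 RPKM or lower.

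A list of 20 genes of other tissues, such as the liver gene ALB and the sperm gene PRM1, served to show what a gene that should be silent looks like in these files. Of these, 11 were at 0 reads in every sample, and the 18 that are not globins reached at most 11 reads in a sample and 0.105 RPKM. The globin genes HBB and HBG1 had 5 to 52 reads and up to 0.727 RPKM. LIN28B, MYC and SOX2 lay above all 20 genes. BMI1, KIT, KLF4 and PROM1 lay above the 18 but below the higher globin, a split that was made after the values were seen. CD44, NANOG and POU5F1 lay within the range of the 18.

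The 3 core pluripotency factors differed in level. SOX2, a gene of 1 exon at chr3:181429713-181432224 (GRCh37, plus strand), had 131 and 123 reads with vehicle and 173 and 110 with LY500307. In CPM these were 4.37 and 4.33 for vehicle and 4.98 and 3.40 for LY500307, so the treated samples lay on either side of the vehicle pair. Its log2 fold change was −0.05 (SE 0.25, 95% interval −0.64 to 0.54, adjusted p = 0.942 by the quasi-likelihood test of edgeR, with the Benjamini-Hochberg method over all genes). NANOG (chr12:7940390-7951742, plus strand) had 2 and 4 reads with vehicle and 3 and 1 with LY500307. POU5F1 (chr6:31132114-31148508, minus strand) had 0 and 0 reads with vehicle and 1 and 0 with LY500307. In the samples at 0, a floor of 3 reads equals 0.0928 to 0.106 CPM, and the exact Poisson 95% interval reaches 3.69 reads. NANOG and POU5F1 both fell below the expression filter of the edgeR fit. DESeq2, which was run without that filter, called neither and gave neither an adjusted p, and no change in NANOG or POU5F1 was detectable at this depth. Each has processed pseudogenes. Only 60.4% of the 50-base windows of NANOG exons and 62.1% of those of POU5F1 occurred once in the GRCh37 genome. Reads of either could therefore have been set aside or placed on a copy. The retrogene POU5F1B had 0 or 1 read per sample.

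Of the factors that complete the reprogramming set, MYC was abundant and KLF4 was rare. MYC, on chromosome 8, drives ribosome production and cell growth. Its CPM was 153 and 148 in the vehicle samples and 161 and 140 in the LY500307 samples, and its group means were 150 ± 3.34 and 151 ± 14.7 (SD, n = 2). The treated samples enclosed the vehicle samples, the log2 fold change was 0.00 (SE 0.11) and its 95% interval ran from −0.25 to 0.25. KLF4 (chr9:110247133-110252763, minus strand), a zinc finger factor of epithelial differentiation, had 25 and 18 reads with vehicle and 21 and 29 with LY500307. The groups overlapped, and the log2 fold change was 0.03 with an interval of −1.08 to 1.14.

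LIN28B (chr6:105384491-105531207, plus strand) was the marker with the lowest p. Its reads numbered 17010 and 15733 with vehicle and 16405 and 13202 with LY500307, which gave 568 and 554 CPM against 473 and 408 CPM. Both treated samples lay below both vehicle samples, as they did for 24.4% of all genes tested. The means were 561 ± 9.88 CPM for vehicle and 441 ± 45.4 CPM for LY500307 (SD, n = 2), a log2 fold change of −0.35 (SE 0.11, 95% interval −0.61 to −0.08). The unadjusted p was 0.0161 in edgeR, fitted across all genes, and 796 genes (5.5%) were lower at an unadjusted p below 0.05. The adjusted p was 0.422 with edgeR and 0.248 with DESeq2, and the size stayed below the 0.5 that the call rule asks for. Across all genes, the log2 fold change went with the GC content of the exons (Spearman rho 0.33) and LIN28B exons are 39.9% GC. With a GC correction its log2 fold change was −0.25 (edgeR adjusted p = 0.504). Without vehicle replicate 1 or vehicle replicate 2 it was −0.33 or −0.37, with an edgeR adjusted p of 0.955 or 0.986 and an unadjusted p no longer below 0.05. Without LY500307 replicate 1 or LY500307 replicate 2 it was −0.45 or −0.24, so its size depended on which treated sample was kept. With a replicate block and the GC correction together the log2 fold change was −0.26 (edgeR adjusted p = 0.605), and the unadjusted p was above 0.05. An exact two-sided permutation test of 2 samples against 2 cannot go below p = 0.333, and LIN28B was at that value.

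**Figure D2:**
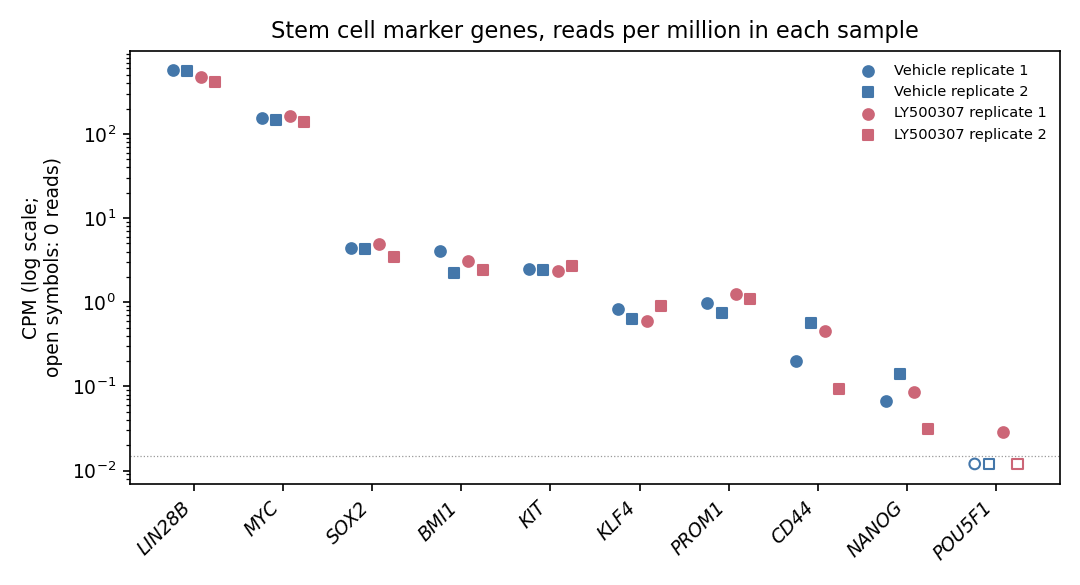
CPM of the 10 markers in each of the 4 samples, on a log axis, with vehicle and LY500307 replicates as separate symbols and open symbols for 0 reads. The LY500307 samples lie below the vehicle samples for LIN28B (473 and 408 against 568 and 554 CPM) and above them for PROM1 (1.24 and 1.08 against 0.968 and 0.739 CPM).

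BMI1 (chr10:22610028-22620413, plus strand) varied more between the vehicle replicates than between groups. It had 123 and 64 reads with vehicle, whose Poisson 95% intervals (102 to 147 and 49.3 to 81.7, counting error only) did not overlap, and 108 and 78 with LY500307. The log2 fold change was −0.20 (SE 0.34, interval −0.99 to 0.58). Of its exonic bases, 3395 of 4395 are not shared with another annotated gene. The rest belong also to the readthrough gene COMMD3-BMI1, which was listed at 0 reads in all samples, so the level of BMI1 may be understated.

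The surface markers were all low. KIT (chr4:55523434-55606949, plus strand), the receptor of stem cell factor, had 74 and 69 reads with vehicle and 81 and 88 with LY500307. At 2.47 and 2.43 against 2.33 and 2.72 CPM the groups overlapped, with a log2 fold change of 0.05 (interval −0.58 to 0.67). PROM1 (chr4:15964699-16086001, minus strand), a cholesterol-binding protein of membrane protrusions, had 29 and 21 reads with vehicle and 43 and 35 with LY500307. Both treated samples were above both vehicle samples, as for 24.2% of all genes tested, and the log2 fold change was 0.44 (SE 0.41, interval −0.50 to 1.38, edgeR adjusted p = 0.642). CD44 (chr11:35160429-35253949, plus strand), the hyaluronan receptor, had 6 and 16 reads with vehicle and 16 and 3 with LY500307. Its replicates spanned more than its groups, and the log2 fold change of −0.43 had an interval of −2.41 to 1.56.

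Of the 8 markers tested, 4 had a positive and 4 a negative log2 fold change, with a median of −0.02. With edgeR, 0 of 8 met the call rule, which asks for an absolute log2 fold change above 0.5 at an unadjusted p below 0.05, and 1 of 8 (LIN28B) had an unadjusted p below 0.05; with DESeq2 these counts were also 0 and 1. Among the 14473 genes tested, 400 (2.76%) met the rule as higher and 269 (1.86%) as lower, and 882 (6.09%) were higher at an unadjusted p below 0.05. An adjusted p below 0.05 was reached by 0 genes (0%) with edgeR, of 1678 with an unadjusted p below 0.05, and by 16 genes with DESeq2, and by 0 markers with either (DESeq2 gave an adjusted p to 4 of the 10). CDKN1A, the p21 gene that the study follows, was among those that met the rule, with 7952 and 7784 reads against 14511 and 15285 and a log2 fold change of 0.72 (SE 0.11). The summed level of the 10 markers was 733 and 713 CPM with vehicle and 647 and 559 CPM with LY500307. Without LIN28B it was 166 and 159 against 174 and 151 CPM, and the groups overlapped. The 95% intervals of SOX2, BMI1, KIT, KLF4, PROM1 and CD44 included changes of 0.5 in at least 1 direction, so the data do not show that these genes were unaffected. That of LIN28B (−0.61 to −0.08) also included −0.5, and only that of MYC (−0.25 to 0.25) left out 0.5 in both directions.

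**Figure D3:**
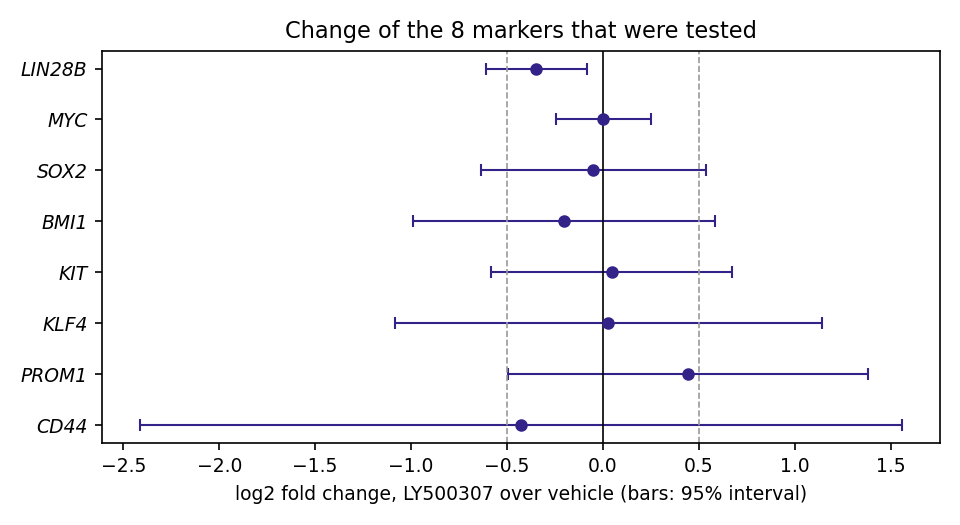
Log2 fold change of LY500307 over vehicle for the 8 markers that passed the expression filter, with bars for the 95% interval. The interval of LIN28B (−0.61 to −0.08) lies below 0, and the other 7 include 0.

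Other genes of the same pathways were described by counts, with no test of a list. Of the 30 genes of the pluripotency network, 12 passed the expression filter and 0 met the call rule, with a median log2 fold change of 0.03. LIN28A, the paralog of LIN28B with the same action on let-7, had 8499 and 8197 reads with vehicle and 9550 and 9257 with LY500307. At 71.3 RPKM it was close to LIN28B in level, with a log2 fold change of −0.03 (SE 0.10). SALL4, a zinc finger partner of the Oct4 network, had 7006 and 6400 against 7863 and 8322 reads, so the ALDH+ cells held much RNA of both LIN28 genes and SALL4 while NANOG and POU5F1 were near 0. ESRRB (23 and 10 against 7 and 8 reads) and LEFTY1 (10 and 2 against 15 and 14 reads) were near the filter, STAT3, the LIF pathway factor, was at 0.18 (SE 0.10), and FGF4, PRDM14, DPPA5 and NR0B1 were listed at 0 in all samples.

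In the LIN28 and let-7 pathway all 29 genes were tested, 0 met the call rule, and the median was −0.08. The let-7 target HMGA2, a chromatin protein whose 3′ UTR holds 4 of the CTACCTC matches, had 60276 and 57852 reads with vehicle and 62037 and 51534 with LY500307, a log2 fold change of −0.26 (SE 0.11). IGF2BP1, an mRNA-binding protein with 4 such matches, had 62.7 RPKM and −0.14. CDC34, a ubiquitin-conjugating enzyme with 1 match, was at 0.27 (SE 0.10), and NR6A1, a nuclear receptor with 5 matches, at 0.39 (SE 0.15). Of the 29 genes, 19 had a match, of which 11 were negative and 8 positive with a median of −0.03, and of the 10 without a match 7 were negative and 3 positive with a median of −0.13. HMGA1, the most abundant per length at 316 RPKM, was at −0.17, and ZCCHC11, which uridylates let-7 precursors, at −0.30 (SE 0.13).

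For MYC, 24 of 25 network partners and all 40 target genes were tested. The partners had a median of −0.03 and 0 calls, and MLXIPL, which acts in glucose sensing, was lowest in p at −0.49 (SE 0.15). The MAX-binding repressors MNT and MXD4 were at −0.26 (SE 0.13) and 0.19 (SE 0.10), and the abundant TRRAP and HUWE1, a histone acetyltransferase subunit and a ubiquitin ligase, at 0.11 and −0.02. The targets had a median of 0.00 and 1 call, HSPE1, a mitochondrial chaperonin, with 356 and 294 reads against 401 and 1217. The call was lost with DESeq2 and rests on LY500307 replicate 2, without which the log2 fold change of HSPE1 was 0.06 in place of 1.14. SRM, a polyamine enzyme, was at 0.34 (SE 0.13), NAP1L1, a histone chaperone, at −0.36 (SE 0.15), and nucleolin (NCL) at −0.38 (SE 0.21) with 67313 and 68982 against 76769 and 44199 reads. The cyclin gene CCND2 was at 0.04.

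All 26 genes of PRC1, the complex of BMI1, were tested, with 0 calls, 7 positive values and a median of −0.11, against 7233 positive values among the 14473 genes tested and a median of −0.00. CBX6, a chromodomain subunit, was at 0.35 (SE 0.10), and PHC3 and SCML2, subunits with a SAM domain, were at −0.31 (SE 0.11) and −0.30 (SE 0.10). The deubiquitinase USP7 and the corepressor BCORL1, the most abundant in CPM, were at −0.30 (SE 0.16) and −0.09. PCGF2 (MEL18), the closest relative of BMI1 in the complex, was at 38.3 RPKM and −0.25, and was named after its value was seen. Of the KIT signalling genes 29 of 30 were tested, with 0 calls and a median of −0.05. The ligand gene KITLG had 7.08 RPKM, above its receptor, and the adaptor SHC1 and the feedback phosphatase DUSP6 were the most abundant in CPM, with log2 fold changes of 0.07 and −0.13. The lowest p belonged to the signal inhibitors SPRED1 and SH2B3 and the ETS factor ETV1, at −0.18 (SE 0.10), 0.24 (SE 0.13) and −0.20 (SE 0.11).

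Among 24 other surface and stem cell markers, 20 were tested and 1 met the rule, and the median was −0.05. PROCR, the endothelial protein C receptor, had 847 and 841 reads with vehicle and 1480 and 1397 with LY500307. Both treated samples were higher, with a log2 fold change of 0.57 (SE 0.12, edgeR adjusted p = 0.422), or 0.45 with a length correction. Nestin (NES, an intermediate filament of neural progenitors) was the most abundant of the list with 201 RPKM and −0.14, the integrin ITGB1 was at −0.27, and FUT4, which makes the SSEA-1 epitope, at 0.23 (SE 0.15).

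Of the CD44 and hyaluronan genes 21 of 30 were tested, 1 met the rule in each direction, and the median was −0.03. MMP14, a membrane protease that cleaves CD44, had 508 and 478 reads with vehicle and 406 and 359 with LY500307, a log2 fold change of −0.57 (SE 0.15). The receptor gene MET was called higher on 2 and 2 reads against 12 and 11, at 0.0285 RPKM, near CD44, and did not meet the rule with DESeq2. HYAL2, a hyaluronidase, was at 0.34 (SE 0.10) and HMMR, a hyaluronan receptor of dividing cells, at −0.39 (SE 0.13). RDX, which links CD44 to actin, and the hyaluronan-binding proteoglycan VCAN were at −0.24 (SE 0.13) and −0.03. Among 40 paralogs with a row, 28 were tested and 1 met the rule. SOX17 had 3 and 5 reads with vehicle and 21 and 14 with LY500307, a log2 fold change of 1.89 (SE 0.69) that did not meet the rule with DESeq2 or without vehicle replicate 1, LY500307 replicate 1 or LY500307 replicate 2. The paralogs PDGFRA (149 RPKM, of the KIT family) and SOX4 (117 RPKM) far exceeded KIT and SOX2 in level and were at −0.00 and 0.04. SOX5 and KLF10 were at −0.56 (SE 0.28) and −0.35 (SE 0.14).

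**Figure D4:**
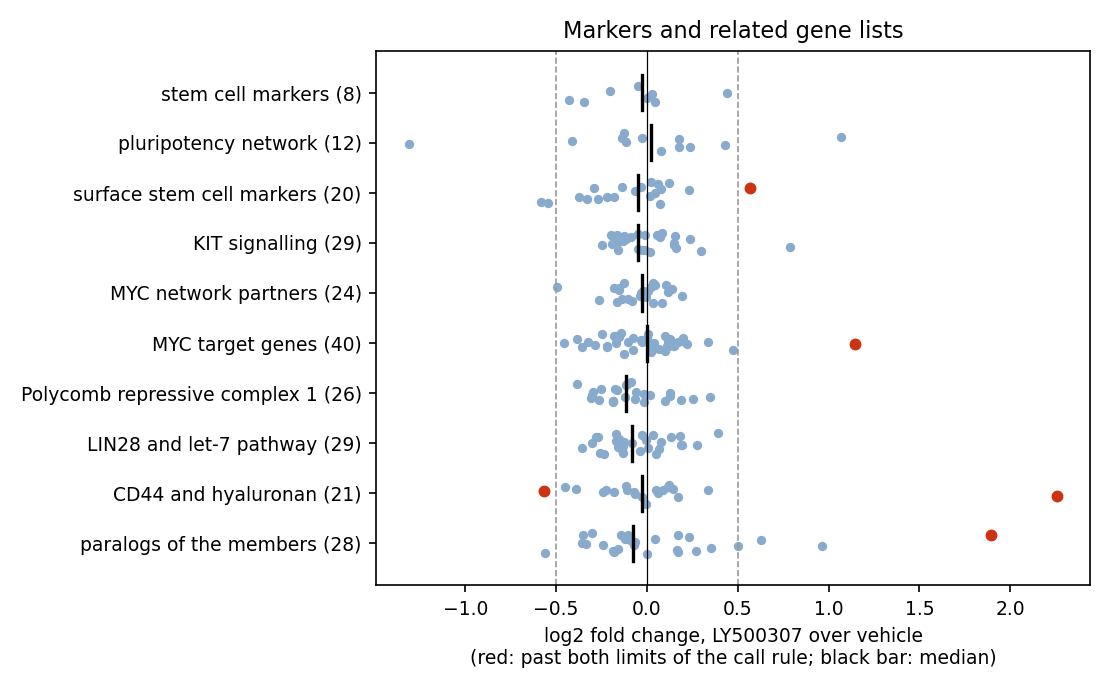
Log2 fold change of LY500307 over vehicle for every tested gene of the markers and of 9 related lists (points, number tested in brackets), with a black bar for the median and red points for the 5 genes that met the call rule. The medians lie between −0.11 and 0.03, and the red points are PROCR, HSPE1, MMP14, MET and SOX17.

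Cells of other types were sought by their markers. The 8 leukocyte genes summed to 13.6 to 19.8 CPM and the 6 endothelial genes to at most 1.05 CPM. The 7 fibroblast and mesenchymal genes summed to 907 and 916 CPM with vehicle and 993 and 1170 CPM with LY500307, a sum carried by the collagen genes COL1A1, COL1A2 and COL3A1. Of the 6 tested, 3 were positive and 0 met the call rule, with a median log2 fold change of 0.01 and quartiles of −0.17 and 0.24. An unadjusted p below 0.05 (edgeR) was reached by 2 of the 6, and by 11.6% of all genes tested. The 3 negative ones were DCN, LUM and POSTN, at −0.20, −0.10 and −0.42. The 15 epithelial genes summed to 87.2 and 86.1 against 99.1 and 98.0 CPM. Of the 8 tested, 6 were positive, with a median log2 fold change of 0.26 and quartiles of −0.10 and 0.45. Against this direction 1, MUC1, met the rule as lower at −0.59 (SE 0.21), as did 1.86% of all genes tested. The part of these differences in the values above was not tested. In bulk RNA, fewer cells of a type and less RNA per cell cannot be told apart.

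The promoters of 8 of the markers, from 250 bases before to 50 bases after the RefSeq start (GRCh38.p14), were examined for CG pairs and for the palindromic estrogen response element, GGTCA and TGACC with any 3 bases between them, which reads alike on both strands. The promoters of KIT, LIN28B, BMI1 and KLF4 held 38, 37, 36 and 33 CG pairs, those of SOX2, PROM1 and CD44 20, 18 and 18, and that of NANOG 5, against a median of 14 over all promoters. The estrogen response element was found in 0 of the 8, and in 18 of 27305 promoters (0.0659%). An exact element this rare would seldom occur in any 8 promoters, so its absence tells nothing about these genes. Weaker elements, more distant sites and control by ERβ were not tested. The abundant LIN28B and the rare KIT thus had similar numbers of CG pairs.

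**Figure D5:**
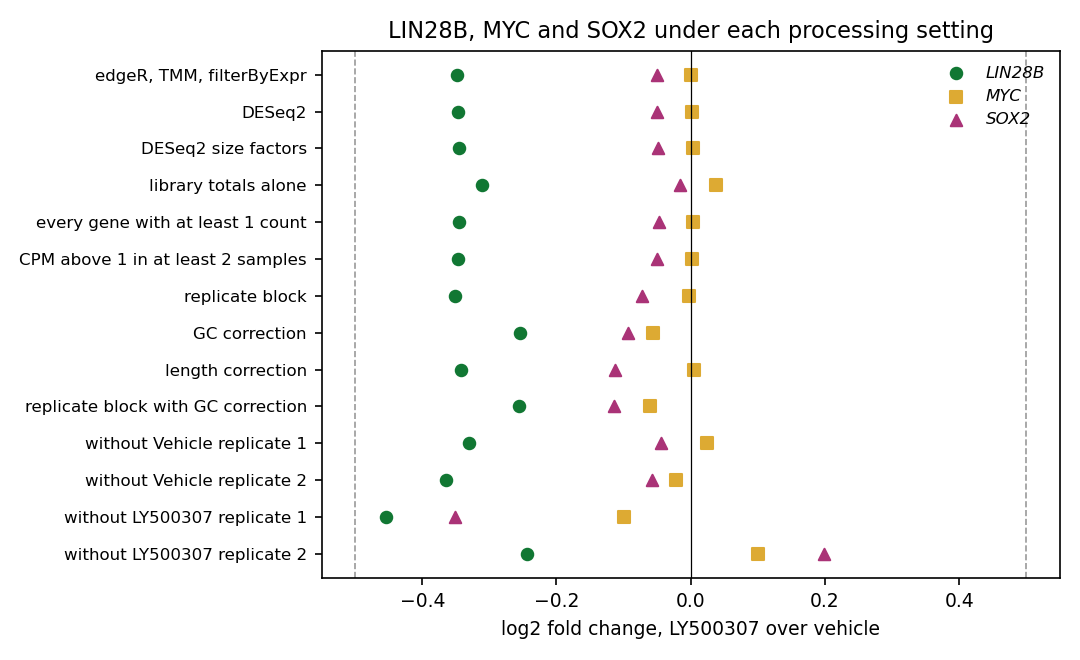
Log2 fold change of LIN28B, MYC and SOX2 under the reported fit (top row) and 13 other ways of processing the counts, with dashed lines at −0.5 and 0.5. LIN28B stays between −0.45 and −0.24, and MYC and SOX2 take values on both sides of 0.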

How the data were processed

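Total RNA of ALDH+ OCSCs labelled SKOV3 (2 vehicle and 2 LY500307 samples) was sequenced as 50-base single-end reads. The labels describe a total RNA library kit and the study's methods stranded mRNA libraries, which the files do not settle. According to the submitters' processing notes, the authors used TopHat2 2.0.8b with the hg19 genome, counted reads on genes with HTSeq, and deposited the counts of each gene symbol unnormalized. The annotation version and strand setting are not given in the sources used here, and neither is whether replicates were separate cultures, so p-values measure the spread between these samples. HTSeq's summary lines were not used as genes, and reads set aside as ambiguous came to 0.963 to 0.979% of the gene counts.

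The test was edgeR 4.0.16 in R 4.3.3 (TMM scaling, filterByExpr, quasi-likelihood test, Benjamini-Hochberg adjustment over 14473 genes), with DESeq2 1.42.0, the tool of the study, as an alternative. The call rule is the study's. CPM use TMM-scaled library sizes, and RPKM divide them by exonic length (GENCODE v44lift37, 91.4% of 23228 symbols matched). Intervals of fold changes are the estimate and its SE times the t quantile of the fit. Read intervals are exact Poisson. Other alternatives were other scalings and filters, GC and length corrections (loess span 0.3 on log2 CPM, prior count 2), a replicate block and leaving out each sample. The procedure was also run on simulated counts that had the same dispersion in all samples. In the data the LY500307 replicates differed more than the vehicle replicates (chi-square per degree of freedom 42.5 against 5.16). The simulation therefore does not cover this unequal spread.

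The markers and lists were chosen with earlier results of these data known, so they support nothing independently. Named were the 10 markers and, of each related list, the 3 genes with the smallest p and the 2 with the highest CPM. Other genes were named after their values were seen.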

Additional observations from a re-analysis of the deposited data

How the results depend on the processing

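None of the 13 alternatives made a marker meet the call rule. LIN28B kept its direction under all 13, and PROM1 also, between 0.26 and 0.65. The number of markers with an adjusted p below 0.05 (edgeR) ranged from 0 to 1 when 1 sample was left out, the 1 being LIN28B without LY500307 replicate 1 or without LY500307 replicate 2, where the lone treated sample is assumed to vary like the vehicle pair. Leaving out 1 sample gave 148 (without LY500307 replicate 2) to 1067 (without LY500307 replicate 1) genes called higher and 204 to 920 (without LY500307 replicate 1) called lower. Of the 9 related lists it gave 4 to 19 called genes in place of 5, with 19 without LY500307 replicate 1 and 8 without vehicle replicate 1. The lists held 2 called genes with DESeq2 (PROCR and MMP14, not HSPE1, MET or SOX17), and 3 with every gene with at least 1 count, with a CPM above 1 in 2 samples or with the length correction. CD44 and KLF4 were not tested under the CPM filter. The markers tested numbered 6 to 10 over the filters.

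Same-numbered samples showed no shared deviation (correlation of deviations −0.07 over 14473 genes). Whether they were prepared together is not given. A replicate block gave 401 genes higher and 316 lower, 6 called genes in the lists, and −0.35 for LIN28B (edgeR adjusted p = 0.441).

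These log2 fold changes turned sign. With the replicate block MYC was −0.0022. With the GC correction KLF4 and MYC were both −0.056, SHC1 −0.0087, VCAN 0.045, SOX4 −0.024 and PDGFRA 0.067, and with block and GC correction together these were −0.060, −0.060, −0.0085, 0.044, −0.024 and 0.067. With the length correction HUWE1, VCAN and PDGFRA were 0.063, 0.046 and 0.048, and with library totals alone LIN28A, HUWE1, VCAN and PDGFRA were 0.013, 0.017, 0.010 and 0.038. PDGFRA was 0.00011 with DESeq2 size factors and 0.0013 with every gene with at least 1 count. Leaving out 1 sample in turn gave ranges of −0.35 to 0.20 for SOX2, −0.28 to 0.29 for KLF4, −0.10 to 0.10 for MYC, −1.98 to 0.48 for CD44, −0.067 to 0.16 for KIT and −0.57 to 0.30 for BMI1. The ranges were −0.053 to 0.0046 for LIN28A, −0.016 to 0.17 for SALL4, −0.30 to 0.0075 for NES, −0.28 to 0.0041 for DUSP6, −0.10 to 0.060 for HUWE1, −0.28 to 0.085 for BCORL1, −0.44 to 0.061 for HMGA1, −0.11 to 0.058 for VCAN and −0.018 to 0.018 for PDGFRA. The causes were not tested. Depth limits CD44, KLF4, PROM1, NANOG and POU5F1, which had 43 reads or fewer per sample.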
